A study of Mus musculus with 20 samples.

Results

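The integrated stress response was followed through 10 genes, Eif2ak3, Atf4, Ddit3, Trib3, Chac1, Asns, Sesn2, Ppp1r15a, Atf5 and Nupr1, which were chosen by gene symbol and were all listed in the bulk RNA-Seq tables of 20 mouse retina libraries, among 18754 genes present in every table. Each of the 4 groups held 5 libraries. The first 2 were P17 retinas after oxygen-induced retinopathy (OIR), in which pups spent P7 to P12 in 75% oxygen and then returned to room air, and they differed in genotype, Atf6+/+ or Atf6-/-. The other groups were P30 wildtype retinas collected 24 h after an intravitreal injection of 1 µL, either the PBS control or 10 µM Ceapin-A7, a small molecule that keeps ATF6 from leaving the endoplasmic reticulum (ER). The labels and the methods describe the solvent of the control differently, and by the methods the control carried more dimethyl sulfoxide than the Ceapin-A7 solution, so compound and vehicle cannot be told apart. Pups of both sexes were used, both eyes were injected, and nothing in the labels ties libraries to animals, so p-values measure only the spread between these libraries, which could include the paired retinas of a mouse. The Atf6-/- allele carries a premature stop codon and acts in every cell of the body. No room-air retina and no uninjected retina was included, so neither OIR nor injection had a control here.

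PERK, encoded by Eif2ak3, is an ER membrane kinase that senses misfolded proteins and phosphorylates the translation factor eIF2. That slows protein synthesis as a whole while favouring translation of the Atf4 mRNA, so ATF4 protein can rise without any change in its transcript. ATF4 then switches on transcription factors (Ddit3, which encodes CHOP, Atf5 and Nupr1), amino acid genes such as Asns, the glutathione-degrading enzyme Chac1, and the brakes Trib3, Sesn2 and Ppp1r15a. The kinases GCN2, PKR and HRI feed into the same step, whereas ATF6 is a separate ER sensor that acts mainly on chaperone genes and shares Ddit3 as a target. In the retina the response is known from photoreceptor degeneration and from axon injury of ganglion cells.

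ATF4 and CHOP bind together to the composite C/EBP-ATF element, and the promoters below are shown because they carry its letters, TGATGNAA, or those of the cyclic AMP response element, TGACGTCA. RefSeq promoters (GRCm38.p6, 300 bases spanning the annotated start) were found for all 10 genes. The C/EBP-ATF letters, searched on both strands, occurred in the promoters of Trib3, Chac1, Asns and Nupr1, that is 4 of the 10 genes, and in 2.87% of the 12513 tested genes with a promoter. The authors aligned to another build, GRCm39, so these positions apply to GRCm38.p6 only. Sequences run 5′ to 3′ along the gene, with the matched letters in capitals.
Trib3 promoter, chr2:152344011-152344310 on the minus strand, match 14 bases after the start: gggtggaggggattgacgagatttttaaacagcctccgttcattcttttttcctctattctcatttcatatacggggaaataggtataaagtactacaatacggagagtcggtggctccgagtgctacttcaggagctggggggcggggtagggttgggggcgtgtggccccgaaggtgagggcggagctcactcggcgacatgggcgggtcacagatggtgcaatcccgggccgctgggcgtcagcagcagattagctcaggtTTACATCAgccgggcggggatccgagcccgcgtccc
Chac1 promoter, chr2:119350992-119351291 on the plus strand, match 193 bases before the start: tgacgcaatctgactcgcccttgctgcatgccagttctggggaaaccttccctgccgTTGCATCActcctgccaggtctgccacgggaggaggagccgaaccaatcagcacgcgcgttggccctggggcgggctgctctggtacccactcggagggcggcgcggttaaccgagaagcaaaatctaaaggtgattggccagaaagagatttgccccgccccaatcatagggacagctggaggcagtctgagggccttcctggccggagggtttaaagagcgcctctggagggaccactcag
Asns promoter, chr6:7693160-7693459 on the minus strand, match 23 bases before the start: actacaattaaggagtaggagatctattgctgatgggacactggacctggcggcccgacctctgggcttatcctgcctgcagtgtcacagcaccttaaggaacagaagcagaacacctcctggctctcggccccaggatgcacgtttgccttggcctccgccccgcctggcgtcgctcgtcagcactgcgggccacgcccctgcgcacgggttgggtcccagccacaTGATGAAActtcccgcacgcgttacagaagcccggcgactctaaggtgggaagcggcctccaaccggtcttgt
Nupr1 promoter, chr7:126625421-126625720 on the minus strand, match 110 bases before the start: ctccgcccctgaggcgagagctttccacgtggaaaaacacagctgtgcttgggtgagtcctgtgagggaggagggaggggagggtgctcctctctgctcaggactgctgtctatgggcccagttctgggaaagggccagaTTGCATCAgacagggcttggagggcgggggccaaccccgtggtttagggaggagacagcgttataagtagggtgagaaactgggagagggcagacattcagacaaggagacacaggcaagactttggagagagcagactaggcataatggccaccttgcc
Ppp1r15a promoter, chr7:45526219-45526518 on the minus strand, cyclic AMP response element 12 bases before the start: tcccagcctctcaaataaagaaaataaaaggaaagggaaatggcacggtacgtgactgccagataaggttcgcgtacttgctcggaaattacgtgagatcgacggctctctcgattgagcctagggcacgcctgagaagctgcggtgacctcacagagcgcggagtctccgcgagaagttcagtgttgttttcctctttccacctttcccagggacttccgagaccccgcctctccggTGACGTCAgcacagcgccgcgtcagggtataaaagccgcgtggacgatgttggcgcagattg

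The matched letters read TTACATCA in Trib3, TTGCATCA in both Chac1 and Nupr1 (the opposite strand of the element), and TGATGAAA in Asns. TGACGTCA occurred in Ppp1r15a alone among the 10 genes and in 3.26% of all genes searched. The letters of the ER stress element that ATF6 binds, CCAAT and CCACG with 9 bases between them, and of the unfolded protein response element TGACGTGG were found in none of the 10 promoter windows, against 0.176% and 0.951% of all genes. These searches describe letters in a short window and say nothing of binding, and elements outside it were not searched.

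A few libraries stood apart and are named here first because the results rest on them. PBS replicates 4 and 5 differed from the other 8 P30 libraries at many genes, with both libraries above all 8 at 12% of 15408 tested genes and both below at 10.6%. In OIR, each library's log2 deviation from the gene's median over the experiment followed the GC content of the transcript, with a Spearman correlation across 15455 genes of 0.31 to 0.38 in Atf6+/+ replicates 1, 2, 3 and 5 and of -0.18 to -0.55 in Atf6-/- replicates 1 to 4. Atf6+/+ replicate 4, at -0.32, and Atf6-/- replicate 5, at 0.41, went against their groups. The GC trend and the genotype therefore cannot be told apart in the other 8 OIR libraries, and 9 of the 10 genes had a GC content above the median of the genes tested.

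The targeted transcript did not separate the genotypes. Atf6 itself was 14.61 to 16.05 FPKM (fragments scaled to transcript length and to the mapped total) in Atf6+/+ OIR and 13.57 to 16.83 in Atf6-/- OIR, a log2 difference of 0.03 (limma, adjusted p = 0.827). A stop codon can leave the transcript in place, so this level does not check the genotype labels. Rod markers were abundant in every library (summed level 16949 to 26836 FPKM), while lens fibre markers, although the lens was removed, ranged from 5.73 to 906 FPKM in OIR and from 12.5 to 10829 at P30, with 9 of 15 such genes at 0 in some library. Library sums of FPKM were 410599 to 456250, and the read depth behind them is unknown.

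Atf4 was the most abundant of the 10 transcripts per length, with group means between 211 and 254 FPKM, and Chac1 was the lowest in OIR, at 2.38 ± 0.585 FPKM in Atf6+/+ and 1.93 ± 0.327 in Atf6-/- (SD, n = 5). Ddit3 was the next most abundant in 3 of the groups, at 62.7 ± 6.54 FPKM in Atf6+/+ OIR, 51.0 ± 3.30 in Atf6-/- OIR and 43.1 ± 2.15 after Ceapin-A7, whereas in PBS Nupr1, at 79.3 ± 61.8 FPKM, had the higher mean. The kinase Eif2ak3 lay between 11.20 and 14.45 FPKM in all 20 libraries. When the 4 groups were put in order of their mean for each gene, 28 of 30 pairs of neighbours overlapped. The exceptions were Ddit3 between Atf6-/- OIR and Ceapin-A7 and Chac1 between Ceapin-A7 and Atf6+/+ OIR. Each set a P17 group beside a P30 group, and the share of such pairs over all genes is not given here.

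Chac1 was the only one of the 10 genes whose levels at P17 and P30 did not meet, with or without PBS replicates 4 and 5. The share of all genes that separate in this way is not given here. Chac1 ranged from 1.49 to 3.17 FPKM in the 10 OIR libraries, with a median of 2.09. In the 8 P30 libraries without PBS replicates 4 and 5 it ranged from 3.54 to 5.09, with a median of 4.45. Those PBS replicates were higher still, at 19.66 and 13.93 FPKM. Age, OIR, injection and the separate experiments cannot be told apart in this difference, and it was not tested.

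**Figure D1:**
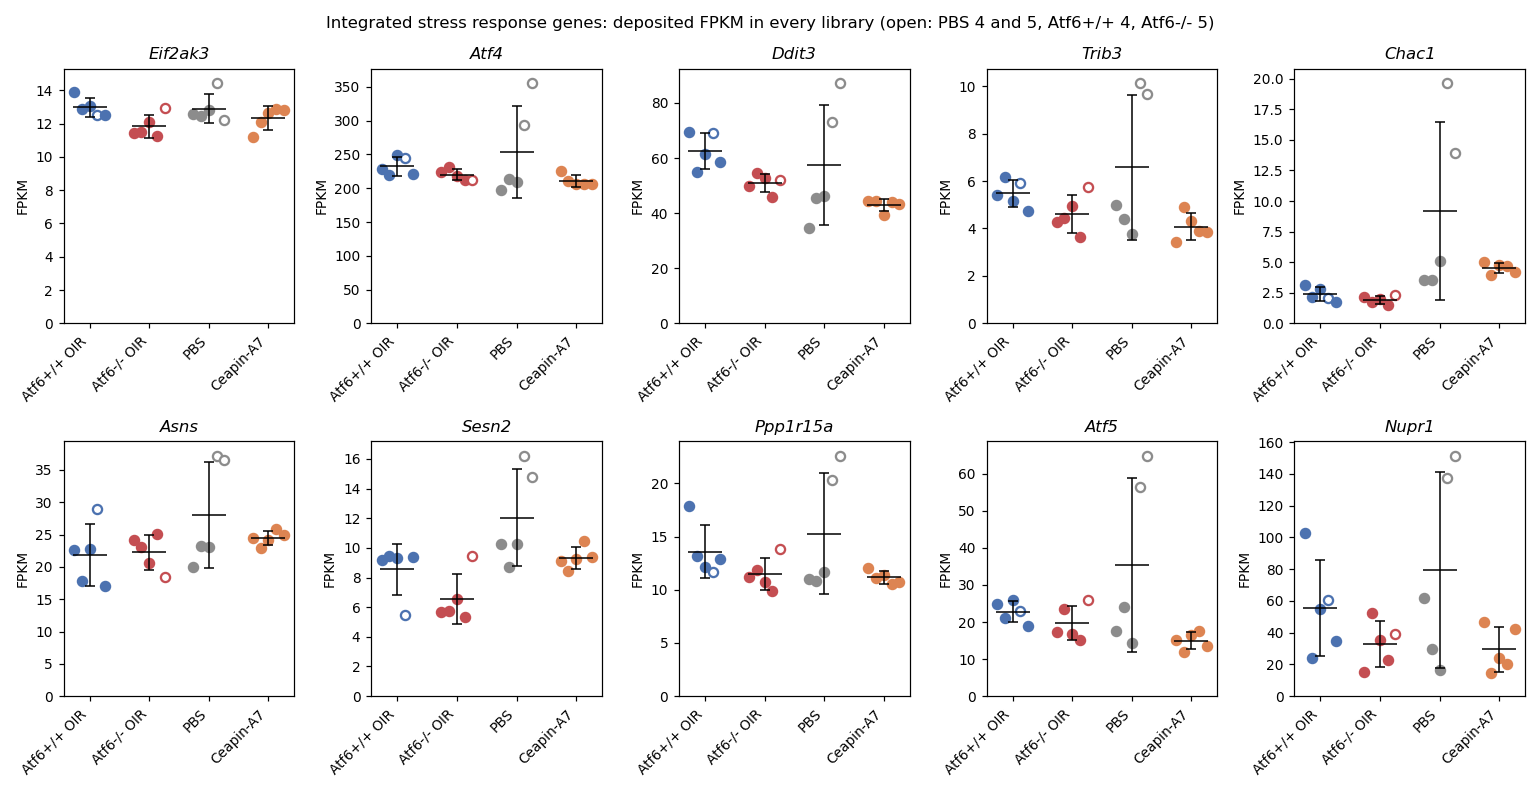
Deposited FPKM (y axis, linear, from 0) of the 10 integrated stress response genes in each library of the 4 groups (x axis), with lines at the mean and bars of 1 SD (n = 5). Open symbols are PBS replicates 4 and 5, Atf6+/+ OIR replicate 4 and Atf6-/- OIR replicate 5; both open PBS symbols lie above the Ceapin-A7 libraries for every gene but Eif2ak3.

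To ask whether loss of Atf6 changed the PERK branch in OIR retinas, Atf6-/- OIR was compared with Atf6+/+ OIR. None of the 10 genes passed an adjusted p of 0.05 (limma, Benjamini-Hochberg over all genes), where 0.0318% of 15704 tested genes did (5 genes). By unadjusted p (0.05 or less), 1 of the 10 genes, Ddit3, was lower, against 5.81% of all genes that were lower and 12.7% in either direction. The log2 difference was below 0 for 9 of 10 genes, with a median of -0.23, against 49.3% of all genes and a median of 0.0028. All log2 differences are on the scale of log2(rescaled FPKM + 0.1).

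Markers of other cells were read in the same 10 libraries, and none of them was called with all 10 (limma). All 14 tested lens fibre markers were below 0 in Atf6-/- OIR, with a median log2 difference of -3.34, 13 of them at an unadjusted p of 0.05 or less, and their summed level was 9.39 to 906.12 FPKM in Atf6+/+ and 5.73 to 8.58 in Atf6-/-. Of 10 pigment epithelium markers 9 were above 0, with a median of 1.05 and sums of 17.47 to 108.58 and 68.24 to 288.07 FPKM. Of 10 endothelial markers 9 were below 0, with a median of -0.25 and sums of 125.54 to 190.23 and 115.18 to 161.96 FPKM. The 10 rod markers were all above 0 (median 0.11), 9 of 10 microglia markers were below (median -0.10), and 5 of 8 Muller glia markers were above (median 0.07). Without Atf6+/+ replicate 4 and Atf6-/- replicate 5, a choice made after seeing the data, 24.9% of all genes were called. Under it 7 lens fibre and 3 endothelial markers were lower, and 5 pigment epithelium, 1 rod and 1 microglia marker higher. With each library's GC trend removed as well, 12.4% of all genes were called. Then 1 lens fibre and 2 endothelial markers were lower, and 1 pigment epithelium, 1 rod and 1 Muller glia marker higher. The part of the markers in the values of the stress response genes was not tested.

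At the head of the pathway, Eif2ak3 was 13.91, 12.88, 13.04, 12.52 and 12.55 FPKM in Atf6+/+ replicates 1 to 5 and 11.45, 11.49, 12.09, 11.25 and 12.96 in Atf6-/- replicates 1 to 5. All Atf6-/- libraries but replicate 5 lay below all 5 Atf6+/+ libraries, and the log2 difference was -0.11 (95% interval -0.27 to 0.04). Atf4 was 228.42, 219.64, 248.59, 244.16 and 220.43 FPKM in Atf6+/+ OIR and 224.48, 232.06, 218.09, 212.84 and 212.88 in Atf6-/- OIR. The ranges of Atf4 overlapped, and the log2 difference of -0.06 had an interval of -0.17 to 0.06.

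Ddit3, which encodes the death-associated factor CHOP, was 69.64, 54.82, 61.31, 69.07 and 58.43 FPKM in Atf6+/+ OIR and 49.87, 54.39, 52.70, 45.84 and 52.14 in Atf6-/- OIR. The deposited values did not overlap, which held in the lower direction for 1.12% of all genes, but they overlapped after rescaling. The log2 difference was -0.28 (SE 0.077, 95% interval -0.44 to -0.11, unadjusted p = 0.00372, limma adjusted p = 0.358). Leaving out single libraries gave Ddit3 values of -0.32 to -0.23, the value closest to 0 being that without Atf6+/+ replicate 1. The other transcription factors were more variable. Nupr1, a small stress-induced chromatin protein, was 102.56, 24.13, 54.63, 60.62 and 34.62 FPKM in Atf6+/+ OIR and 15.39, 52.67, 35.21, 23.04 and 38.95 in Atf6-/- OIR, a log2 difference of -0.67 (SE 0.385) with wide overlap, and -0.40 without Atf6+/+ replicate 1. Atf5, a factor translated under eIF2 phosphorylation like Atf4, gave -0.21 (SE 0.151), with Atf6-/- replicate 5, at 25.97 FPKM, above all the Atf6+/+ libraries. Atf5 was -0.12 without Atf6-/- replicate 4 and -0.34 without Atf6-/- replicate 5.

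Among the feedback genes, Sesn2, a leucine sensor that restrains mTORC1, was 9.20, 9.46, 9.32, 5.50 and 9.38 FPKM in Atf6+/+ OIR and 5.66, 5.75, 6.52, 5.34 and 9.46 in Atf6-/- OIR. In each genotype 4 libraries formed a range apart from the other genotype's 4, and the remaining library lay within the other genotype's range. Those were Atf6+/+ replicate 4 and Atf6-/- replicate 5, the libraries whose GC trend also went against their group, and Sesn2 had a higher GC content than 89.8% of the genes. Over all 10 libraries the log2 difference of Sesn2 was -0.37 (SE 0.195, limma adjusted p = 0.422). Ppp1r15a, the eIF2 phosphatase subunit GADD34, was 17.89, 13.18, 12.17, 11.66 and 12.94 FPKM in Atf6+/+ OIR and 11.16, 11.83, 10.69, 9.87 and 13.88 in Atf6-/- OIR. It gave -0.21 (SE 0.134) with overlapping ranges, and -0.10 without Atf6+/+ replicate 1. Trib3, a pseudokinase that holds back ATF4 and AKT, gave -0.24 (SE 0.126), and -0.15 without Atf6-/- replicate 4.

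The metabolic targets had values of both signs. Chac1 ranged from 1.72 to 3.17 FPKM in Atf6+/+ OIR and from 1.49 to 2.33 in Atf6-/- OIR, a log2 difference of -0.26 (SE 0.175), and -0.14 without Atf6+/+ replicate 1. Asns, asparagine synthetase and a textbook ATF4 target, was 22.68, 17.89, 22.84, 29.01 and 17.07 FPKM in Atf6+/+ OIR and 24.11, 23.11, 20.58, 25.08 and 18.50 in Atf6-/- OIR. Its ranges overlapped almost fully, and its log2 difference of 0.06 (95% interval -0.21 to 0.33) was the only one above 0. Asns was also the one of the 10 genes with a GC content below the median.

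Removing each library's GC trend, a correction chosen after seeing the data, brought the median of the 10 genes to -0.13, with 8 of 10 below 0. Ddit3 was then -0.21 (unadjusted p = 0.0175, limma adjusted p = 0.419), Sesn2 was -0.25 and Atf4 was 0.011, beside 0.0509% of all genes called and 4.89% lower by unadjusted p. With Atf6+/+ replicate 4 and Atf6-/- replicate 5 both left out, also chosen after seeing the data, 24.9% of 15714 genes passed the adjusted threshold and 14.5% were lower. Under that choice 4 of the 10 genes passed it, all lower, with log2 differences of -0.69 for Sesn2, -0.28 for Ddit3 (limma adjusted p = 0.0292), -0.19 for Eif2ak3 (limma adjusted p = 0.0334) and -0.36 for Ppp1r15a (limma adjusted p = 0.0455). The median of the 10 genes was -0.33. With the GC correction as well, the median was -0.14 with 8 of 10 below 0. Sesn2 alone of the 10 then passed, at -0.48, against 12.4% of all genes called and 6.8% called lower, and Ddit3 was -0.16 (limma adjusted p = 0.184). The libraries left out were those whose GC trend went against their group and whose Sesn2 lay in the other genotype's range. Leaving them out therefore fixed the separation of Sesn2, whose values here are a description, and the other calls have to be read beside the shares over all genes.

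**Figure D2:**
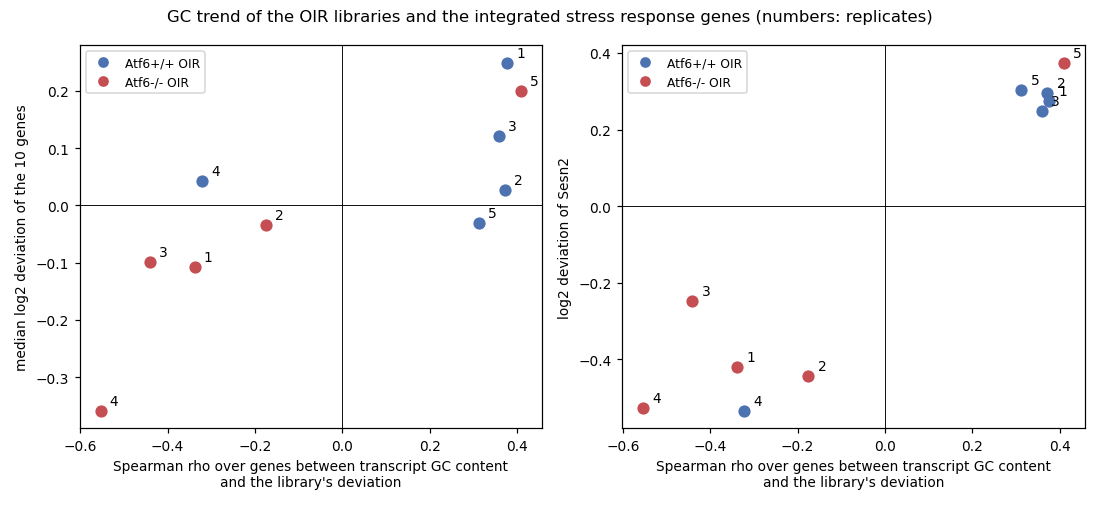
Each OIR library's GC trend (x axis, Spearman correlation over genes between transcript GC content and the library's log2 deviation) against the median log2 deviation of the 10 genes (left, y axis) and the log2 deviation of Sesn2 (right, y axis), with replicate numbers beside the points. By GC trend and Sesn2, Atf6+/+ replicate 4 (x at -0.32, Sesn2 at -0.53) lies with the Atf6-/- libraries. Atf6-/- replicate 5 (x at 0.41, Sesn2 at 0.37) likewise lies with the Atf6+/+ libraries. In the left panel Atf6+/+ replicate 4 lies at 0.042, within the Atf6+/+ range of -0.03 to 0.25, and Atf6-/- replicate 5 at 0.20.

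To ask whether acute inhibition of ATF6 changed the same genes, Ceapin-A7 was compared with PBS at P30. The clearest feature was within the control group, where PBS replicates 4 and 5 exceeded all 8 other P30 libraries for 9 of the 10 genes, against 12% of all genes. Chac1 was 3.54, 3.57, 5.09, 19.66 and 13.93 FPKM in PBS replicates 1 to 5 and 5.00, 3.95, 4.75, 4.69 and 4.2 in Ceapin-A7 replicates 1 to 5. PBS replicates 4 and 5 were thus 3.86 and 2.74 times the highest other library, while PBS replicates 1 to 3 overlapped the Ceapin-A7 range.

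For the transcription factors too, PBS replicates 4 and 5 stood above the other P30 libraries. Atf4 was 197.77, 213.39, 209.43, 293.68 and 355.93 FPKM in PBS and 225.83, 210.47, 205.63, 206.60 and 206.22 after Ceapin-A7. Ddit3 was 34.74, 45.56, 46.35, 73.00 and 87.26 FPKM in PBS and 44.31, 44.47, 39.31, 43.99 and 43.20 after Ceapin-A7. For both genes PBS replicates 1 to 3 overlapped the Ceapin-A7 range, and replicates 4 and 5 stood 1.30 and 1.58 times (Atf4) and 1.57 and 1.88 times (Ddit3) above the highest other library. Atf5 was 17.60, 24.04, 14.37, 56.32 and 64.80 FPKM in PBS and 15.26, 11.89, 16.47, 17.49 and 13.50 after Ceapin-A7. Nupr1 was 62.15, 29.43, 16.57, 137.15 and 151.36 FPKM in PBS and 46.72, 14.66, 24.26, 20.16 and 42.41 after Ceapin-A7. The last 2 PBS replicates were 2.34 and 2.70 times the highest other library for Atf5 and 2.21 and 2.44 times for Nupr1. Nupr1 also varied widely among the rest, and for Atf5 PBS replicates 1 and 2 lay above all Ceapin-A7 libraries as well.

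The feedback genes Trib3, Sesn2 and Ppp1r15a followed. Trib3 was 4.97, 4.41, 3.75, 10.14 and 9.67 FPKM in PBS, against 3.41 to 4.90 after Ceapin-A7. Sesn2 was 10.23, 8.73, 10.25, 16.20 and 14.80 FPKM in PBS, against 8.42 to 10.48. Ppp1r15a was 11.01, 10.84, 11.70, 20.31 and 22.59 FPKM in PBS, against 10.51 to 12.09. In each case PBS replicates 1 to 3 overlapped Ceapin-A7 and the other two were 1.41 to 2.04 times the highest of the remaining libraries. Asns, at 20.06, 23.16, 23.07, 37.18 and 36.59 FPKM in PBS and 22.92 to 25.85 after Ceapin-A7, repeated this with smaller factors of 1.44 and 1.42. Eif2ak3 was the exception, at 12.57, 12.44, 12.84, 14.45 and 12.23 FPKM in PBS, since replicate 5 lay inside the Ceapin-A7 range of 11.20 to 12.91.

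**Figure D3:**
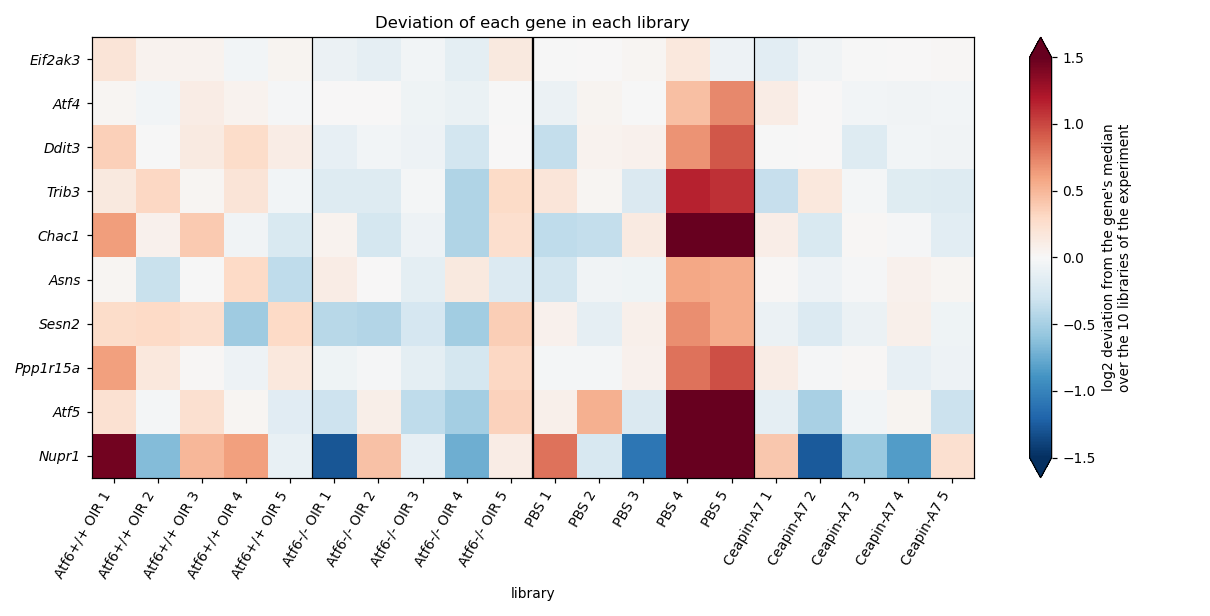
Heat map of the 10 genes (rows) in the 20 libraries (columns), coloured by the log2 deviation from the gene's median over the 10 libraries of its experiment (scale cut at 1.5 either way). PBS replicates 4 and 5 stand out in every row but that of Eif2ak3, and the median deviation of the 10 genes was 0.75 and 0.95 there, against -0.07 to 0.02 in the other P30 libraries.

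With all 10 P30 libraries, none of the 10 genes passed an adjusted p of 0.05 (limma), as was so for all 15408 genes tested (0%), of which 1595 (10.4%) had an unadjusted p of 0.05 or less. All 10 genes were below 0, with a median log2 difference of -0.35, against 49.7% of all genes and a median of 0.00089. By unadjusted p, 3 of the 10 genes passed 0.05, all lower, against 5.31% of all genes that were lower. These were Atf5, at -0.99 (SE 0.370, unadjusted p = 0.0209, limma adjusted p = 0.472), Trib3, at -0.57 (SE 0.252, unadjusted p = 0.0451, limma adjusted p = 0.478), and Sesn2, at -0.33 (SE 0.143, unadjusted p = 0.0420, limma adjusted p = 0.475). Nupr1 had the largest value, -1.09, and Eif2ak3 the smallest, -0.06.

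Without PBS replicates 4 and 5, a choice made after seeing the data, the median of the 10 genes was -0.03 and 6 of 10 were below 0, against 50% of all genes. Atf4 was then 0.011, Ddit3 0.022, Chac1 0.15 and Asns 0.13, all above 0, and Asns had an unadjusted p of 0.0478 (limma adjusted p = 0.991), beside 5% of all genes at that threshold and 2.61% that were higher. Atf5 was -0.32 (95% interval -0.69 to 0.05, limma unadjusted p = 0.0849). Nupr1 was -0.23, Trib3 -0.12, Sesn2 -0.08, Eif2ak3 -0.05 and Ppp1r15a -0.02. Each of the 10 values thus moved toward 0 or past it when the 2 PBS libraries were left out.

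**Figure D4:**
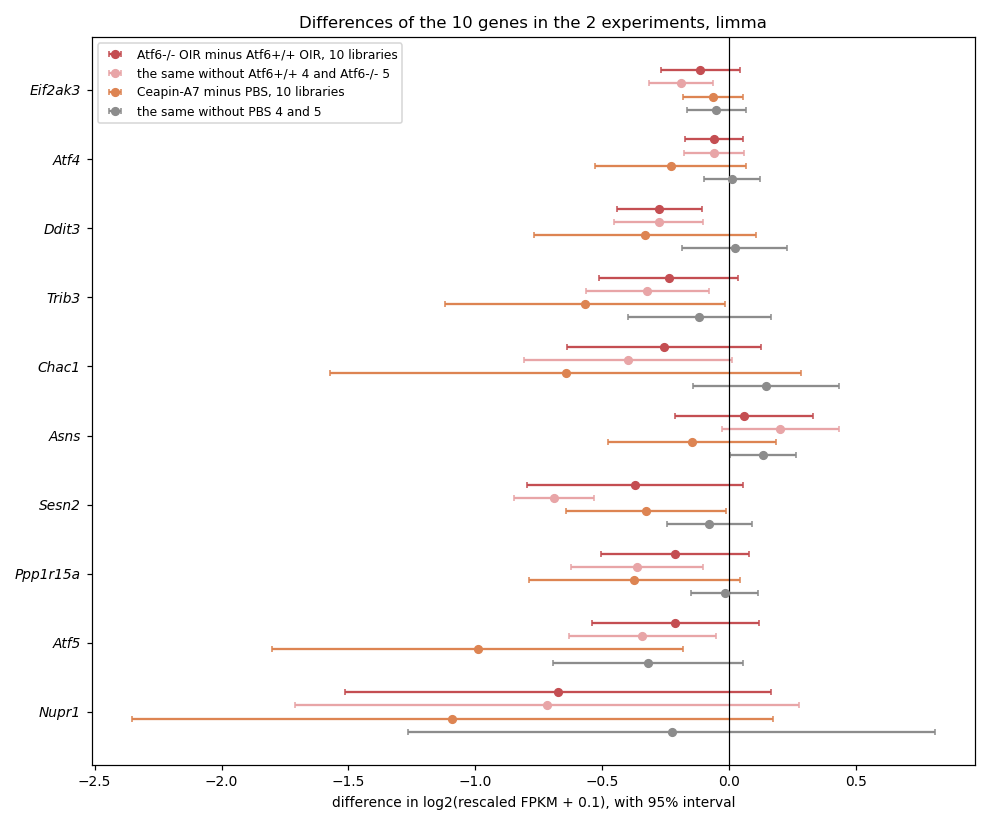
Log2 differences of the 10 genes (x axis, log2(rescaled FPKM + 0.1), with 95% limma intervals) in OIR and after Ceapin-A7, with all 10 libraries of each experiment and without the libraries that stood apart. Leaving out PBS replicates 4 and 5 moved the median at P30 from -0.35 to -0.03, and leaving out an OIR library of each genotype moved the OIR median from -0.23 to -0.33. With the GC correction as well, which is not drawn, that OIR median was -0.14.

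The same 2 PBS libraries were set beside markers of retinal cells. Over all genes, 12% were higher and 10.6% lower in both than in the 8 other P30 libraries. All 10 rod markers were lower in both than in the 8 other P30 libraries, with a median log2 deviation over the list of -0.44 and -0.43, against -0.09 to 0.10 in PBS replicates 1 to 3. In bulk samples fewer cells of a type and less RNA per cell cannot be told apart. Of 8 Muller glia markers, 3 were lower and 2 higher in both libraries. The glutamine synthetase gene Glul was 665.55, 624.10, 1023.51, 253.99 and 330.20 FPKM, and the intermediate filament gene Vim 188.53, 143.65, 102.66, 326.89 and 311.54. Of 12 immediate early genes, 6 were higher in both, no lens or pigment epithelium marker differed in this way, and 1 endothelial marker was higher and 1 microglia marker lower. The part of these changes in the values of the stress response genes was not tested.

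The difference between the effects of Ceapin-A7 at P30 and of Atf6 loss in OIR was tested as an interaction over the 20 libraries. None of the 10 genes passed an adjusted or unadjusted p of 0.05 (limma), against 0.032% and 9.19% of 15628 genes. The values ran from -0.78 for Atf5 (95% interval -1.67 to 0.11, unadjusted p = 0.0816, limma adjusted p = 0.577) to 0.05 for Eif2ak3. Without PBS replicates 4 and 5 the range was -0.11 for Atf5 to 0.44 for Nupr1, and Ddit3, at 0.29, had an unadjusted p of 0.0326 (limma adjusted p = 0.612), beside 7.87% of all genes past 0.05.

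A further 4 lists covered the steps around the 10 genes. Among 18 genes for the other eIF2 kinases, eIF2, its exchange factor eIF2B and their regulators, none was called in either experiment with all libraries (limma), and the medians were 0.04 in OIR, -0.011 there with the GC correction, and 0.02 after Ceapin-A7. Without Atf6+/+ replicate 4 and Atf6-/- replicate 5, 5 of the 18 genes were called higher and 1 lower, beside 24.9% of all genes called. With the GC correction as well 2 were higher, beside 12.4% of all genes called. Impact, an inhibitor of the GCN2 kinase, and the eIF2B subunit gene Eif2b3 had the smallest p in OIR, with log2 differences of 0.20 (limma adjusted p = 0.370) and 0.15. At P30 the phosphatase subunit genes Ppp1r15b, at -0.11, and Ppp1ca, at 0.08, did. For 2 of the 18 genes PBS replicates 4 and 5 were both above the other 8 libraries, and for 2 both were below, or 11.1% in each direction, beside 12% and 10.6% of all genes.

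Among 17 tested further ATF4 and CHOP targets and partners, none was called with all libraries. Without Atf6+/+ replicate 4 and Atf6-/- replicate 5, 2 were lower, beside 14.5% of all genes called lower. With the GC correction as well 1 was higher, beside 12.4% of all genes called in either direction. The medians of the list were -0.11 in OIR, -0.18 after Ceapin-A7 and -0.008 without PBS replicates 4 and 5. In OIR, Bbc3, the proapoptotic factor PUMA, was 6.38 ± 0.466 FPKM in Atf6+/+ and 5.12 ± 0.548 in Atf6-/- (SD, n = 5), a log2 difference of -0.30 (unadjusted p = 0.00912, limma adjusted p = 0.358), and Cebpb, a dimer partner of CHOP, gave -0.70 (unadjusted p = 0.0403), and -0.43 without Atf6+/+ replicate 1. With the GC correction Bbc3 was -0.085 (limma adjusted p = 0.755) and Cebpb -0.51 (limma adjusted p = 0.522). After Ceapin-A7, Atf3, a stress-induced bZIP factor, gave -1.31 (unadjusted p = 0.0127, limma adjusted p = 0.472), and the ER oxidase Ero1a -0.18. Atf3 was 6.37, 6.40, 4.86, 28.56 and 20.72 FPKM in PBS replicates 1 to 5 and 3.18 to 5.47 after Ceapin-A7, and it was -0.51 without PBS replicates 4 and 5. In all, 10 of the 17 genes were above the other 8 libraries in both PBS replicates 4 and 5, against 12% of all genes. They included, chosen after their values were seen, the secreted stress factor Gdf15, at 0.62, 0.32, 0.48, 3.35 and 4.43 FPKM, and the translation inhibitor Eif4ebp1, at 2.58, 2.03, 1.45, 12.70 and 16.50.

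Among 20 genes of amino acid synthesis, amino acid transport and one-carbon metabolism, 1 was called in OIR. Shmt2, mitochondrial serine hydroxymethyltransferase, fell from 68.5 ± 5.99 to 31.9 ± 5.15 FPKM (SD, n = 5), a log2 difference of -1.09 (SE 0.114, limma adjusted p = 0.00173). Its Atf6+/+ libraries ranged from 60.61 to 76.09 and its Atf6-/- libraries from 25.48 to 39.61, so the groups did not overlap, and with all 10 OIR libraries it was the only gene called lower among all those tested. With the GC correction Shmt2 was -0.99. After Ceapin-A7 Shmt2 was -0.22 (limma adjusted p = 0.506), and -0.016 without PBS replicates 4 and 5. Its level was 23.81, 21.38, 23.34, 33.19 and 34.13 FPKM in PBS replicates 1 to 5. The rest of the list had 13 genes below 0 in OIR, with a median of -0.12 for the whole list. Without Atf6+/+ replicate 4 and Atf6-/- replicate 5, 7 of the 20 genes were called lower and 2 higher. Of all genes, 24.9% were called in that setting and 14.5% called lower. With the GC correction as well 2 of the 20 were called in each direction, beside shares of 12.4% called and 6.8% called lower. After Ceapin-A7, 19 of 20 genes were below 0 with a median of -0.32, and the smallest unadjusted p-values were those of the amino acid transporters Slc38a2, at -0.26, and Slc1a4, at -0.49. Without PBS replicates 4 and 5 the median was -0.01.

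In PBS replicates 4 and 5, both values were above the other 8 P30 libraries for 15 of these 20 genes. The same held for 11 of 12 cytosolic aminoacyl-tRNA synthetases, the enzymes that charge tRNAs, and for 12% of all genes. Chosen after their values were seen, Slc7a5, the large neutral amino acid transporter, was 27.54, 24.18, 27.47, 58.93 and 66.53 FPKM, the folate enzyme Mthfd2 4.76, 5.50, 5.27, 12.97 and 15.09, and the alanyl-tRNA synthetase gene Aars 63.27, 60.92, 63.11, 95.13 and 84.91. No synthetase was called in either experiment with all libraries. Without Atf6+/+ replicate 4 and Atf6-/- replicate 5 in OIR, 2 of the 12 were higher and 1 lower, beside 24.9% of all genes called. With the GC correction as well 1 was lower, beside 6.8% of all genes called lower. The median of the synthetases was 0.02 in OIR, with Nars at 0.14 and Eprs at 0.12, and -0.11 after Ceapin-A7, with Mars1 at -0.19 and Lars at -0.11, and it was 0.05 without the 2 PBS libraries.

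**Figure D5:**
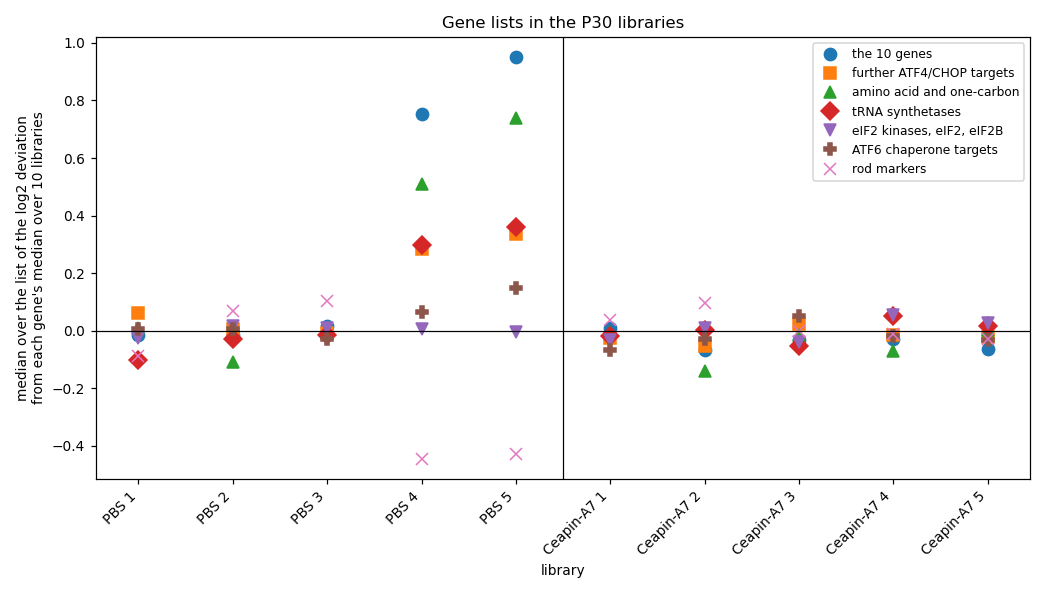
Median over each gene list of the log2 deviation from the gene's median over the 10 P30 libraries (y axis), by library (x axis), with a symbol for each list. In PBS replicates 4 and 5 the 10 genes lie at 0.75 and 0.95 and the rod markers at -0.44 and -0.43, whereas the eIF2 list lies at 0.0043 and -0.0064.

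The 10 genes were also compared with each other over the libraries, as a description. On log2 values centred on each group, 43 of the 45 pairs had a Pearson r above 0 over the 20 libraries, with a median of 0.66, and 37 were above 0 over the 18 libraries without PBS replicates 4 and 5, with a median of 0.30. Atf4 and Ddit3 gave 0.93 over 20 libraries and 0.63 over 18. Within the 10 OIR libraries the median was 0.49, the highest value was 0.87 for Eif2ak3 with Ppp1r15a, and the lowest was -0.77 for Asns with Sesn2. Sesn2 and Asns deviated by -0.53 and 0.30 in Atf6+/+ replicate 4 and by 0.37 and -0.20 in Atf6-/- replicate 5. The GC trends of those libraries went against their groups, and the part of the GC trend in these correlations was not tested. The usual r between any 2 genes is not given here.

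The genes most like Atf4 among 12997 genes, by the same r over the 20 libraries, were Ddit3 (0.93), the tRNA exporter Xpot (0.92) and Iars (0.91), an isoleucyl-tRNA synthetase gene. For Ddit3 they were Ifrd1 (0.93), Cars (0.93) and Atf4, and for Trib3 the proline synthesis gene Aldh18a1 (0.89), Arid5a (0.87) and Cyb5r1 (0.86). Over the 18 libraries without PBS replicates 4 and 5, Iars with Atf4 dropped to 0.19 and Xpot with Atf4 to 0.57, while Ifrd1 with Ddit3 was 0.78. Much of the likeness was thus carried by 2 control libraries.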

How the data were processed

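Bulk RNA-Seq of whole retinas was analysed in 20 libraries, 5 in each of 4 groups assigned from the sample labels. The authors sequenced stranded mRNA libraries on the DNBSEQ platform, aligned the reads to GRCm39 with HISAT2 (2.0.4), and deposited RSEM (1.2.18) expression per gene as FPKM to 2 decimals. These are not counts, so no count model was fitted and no counting interval was computed. FPKM is also relative to the library total, so a large change in a few abundant genes shifts all the others.

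Library factors from medians of ratios (0.946 to 1.04) were divided out, and values were compared as log2(value + 0.1) for genes with a mean FPKM above 0.1, with limma (3.58.1, eBayes with trend, R 4.3.3), in a fit of the 10 libraries of each experiment. An interaction was fitted over the 20 libraries. The Benjamini-Hochberg adjustment covered every gene in a fit, and the text calls a gene at an adjusted p under 0.05. The GC correction removed each library's lowess trend (span 0.3) with transcript GC content, taken from a GRCm38 annotation and found for 98.4% of the genes in OIR. The fits were tested on simulated data.

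The 10 genes and the gene lists were chosen with earlier results of these data known. Besides the 10 genes, the text names the 2 genes with the smallest p, or all called genes, of each pathway list in each experiment, and the 3 genes most correlated with Atf4, Ddit3 and Trib3. Any other gene in the text was picked after seeing its values. The alternatives tried were other pseudocounts, filters and scalings, limma without trend or with array weights, joint fitting of the 20 libraries, blocking on replicate number, and leaving out each library, with the GC correction and the omission of 2 libraries at once added after seeing the data.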

Additional observations from a re-analysis of the deposited data

Results flagged for a closer look

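Of the 40 sets of 5 libraries (10 genes in 4 groups), 1 held a library far from the rest on rescaled log2 values by Dixon's test, where chance gives about 1 in 20. Sesn2 in Atf6+/+ OIR replicate 4 was 5.5 FPKM, whereas the other 4 libraries of that group were between 9.2 and 9.46, and its gap made up 0.936 of the range of the group. On the deposited FPKM, a scale chosen after seeing the data, 6 sets in 5 genes passed the same threshold. The other five were Ppp1r15a in Atf6+/+ OIR replicate 1 (17.89 FPKM), Sesn2 in Atf6-/- OIR replicate 5 (9.46), Eif2ak3 in PBS replicate 4 (14.45), Atf4 in Ceapin-A7 replicate 1 (225.83) and Ddit3 in Ceapin-A7 replicate 3 (39.31). PBS replicates 4 and 5 were not found in this way for the other 9 genes, because the test looks at a single extreme library and these are a pair.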

How the results depend on the processing

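The OIR comparison depended on the libraries kept. Of the 10 genes, 0 were called with all libraries, 2 with array weights (2769 genes called in all), 4 without Atf6+/+ replicate 4 and Atf6-/- replicate 5 (3909 genes) and 1 without them and with the GC correction (1949 genes), while leaving out any single library gave 0 throughout. Array weights, which were lowest for those libraries at 0.345 and 0.346, gave Ddit3 at -0.25 (limma adjusted p = 0.0328) and Sesn2 at -0.57 (limma adjusted p = 0.0251). At an unadjusted p of 0.05 or less, leaving out a single library gave 1 to 6 of the 10 genes in OIR, with 6 without Atf6-/- replicate 5, and 0 to 6 at P30, with 0 without PBS replicate 4 and 6 without PBS replicate 1. Values of single genes that changed sign included Atf4 in OIR (0.011 with the GC correction, 0.063 with it and without the 2 libraries), Bbc3 in OIR under the latter (0.0038), Asns in OIR (-0.015 to 0.15 without single libraries), Atf4, Ddit3, Chac1 and Asns at P30 without PBS replicates 4 and 5 (0.011, 0.022, 0.15 and 0.13), and, in the interaction with the GC correction, Eif2ak3 (-0.0016) and Sesn2 (-0.05). Without PBS replicates 4 and 5 the interaction values of Atf4, Ddit3, Trib3, Chac1, Asns, Ppp1r15a and Nupr1 turned from below to above 0 (0.07, 0.29, 0.12, 0.40, 0.07, 0.19 and 0.44). The cause was not tested. Correlations of same-numbered libraries ran from -0.258 to 0.210 in OIR and -0.217 to 0.310 at P30. Those of differently numbered libraries ran from -0.529 to 0.298 and from -0.359 to 0.338. They gave no sign of pairing by replicate number, but so few correlations cannot exclude it. With the replicate number as a block, 0 of the 10 genes were called in either comparison, and 5 genes in all were called in OIR and 0 at P30. Depth is unknown, and 2 decimals limit low genes such as Chac1.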

Other observations

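The other arms of the unfolded protein response were read in the same libraries. Of 14 ATF6 chaperone targets, 9 were below 0 in Atf6-/- OIR, with a median log2 difference of -0.12. After Ceapin-A7 all 14 were below 0, with a median of -0.07, but none was called (limma) in either experiment with all libraries. Without Atf6+/+ replicate 4 and Atf6-/- replicate 5, 1 was called higher and 2 lower, beside 24.9% of all genes called. With the GC correction as well 2 were lower, beside 12.4% of all genes called. Hspa5, the ER chaperone BiP, was 110.20, 109.92, 106.39, 138.04 and 161.86 FPKM in PBS replicates 1 to 5 and 105.80 to 131.64 after Ceapin-A7. Both PBS replicates 4 and 5 were above the other 8 P30 libraries for 4 of the 14 chaperone targets. This held for 3 of 12 IRE1/XBP1 targets and for 12% of all genes. Without PBS replicates 4 and 5, 10 of the 14 chaperone targets were below 0 with a median of -0.03. The IRE1/XBP1 targets had medians of 0.07 in OIR and -0.04 after Ceapin-A7, and none was called with all libraries. In OIR 2 were called higher without Atf6+/+ replicate 4 and Atf6-/- replicate 5, and 0 with the GC correction as well.

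Immediate early genes, which respond within minutes to neuronal activity and handling, had medians of -0.21 in OIR and -0.39 after Ceapin-A7, and of -0.20 without PBS replicates 4 and 5. None of 12 was called with all libraries (limma). Without Atf6+/+ replicate 4 and Atf6-/- replicate 5, 2 were called lower, and 1 with the GC correction as well, beside 14.5% and 6.8% of all genes. By unadjusted p, 6 were lower after Ceapin-A7, beside 5.31% of all genes. Without PBS replicates 4 and 5, 5 were lower, beside 5% of all genes in either direction. The summed level of the immediate early genes was 409.62 FPKM in Atf6+/+ OIR replicate 1, against 189.81 to 213.49 in the other 4 libraries of that group. Replicate 1 was also the library with the highest Eif2ak3, Ddit3, Chac1, Ppp1r15a and Nupr1 of its group. The same sum was 380.47 FPKM in Atf6-/- OIR replicate 5, against 164.31 to 256.44 in the other 4 libraries of that group. Replicate 5 was also the library with the highest Eif2ak3, Trib3, Chac1, Sesn2, Ppp1r15a and Atf5 of its group.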
